A study of Homo sapiens with 4 samples.

Results

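The genes described here are those of the respiratory chain and the ATP synthase, followed in BT474, an established breast cancer cell line with estrogen receptor and amplified HER2. Members were chosen by gene symbol: the nuclear NDUFA, NDUFB, NDUFC, NDUFS and NDUFV genes, COX4 to COX8, the UQCR and ATP5 genes and SDHA to SDHD, and the mitochondrial MT-ND, MT-CO, MT-CYB and MT-ATP genes. The symbols gave 105 of the 33538 genes, 92 of them nuclear and 13 mitochondrial. Cells were treated for 4 h with DMSO (the vehicle), with 100 nM fulvestrant (an antagonist that degrades the estrogen receptor), with 200 nM neratinib (an irreversible inhibitor of EGFR, HER2 and HER4), or with fulvestrant at 100 nM and neratinib at 200 nM together, called both drugs below. Each group was 1 single-cell RNA-seq library of 1 cell line, made with a 3′ droplet kit that counts molecules by unique molecular identifiers (UMIs). The labels name no replicate cultures, so no difference between groups could be tested, and every interval below covers counting error only.

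The respiratory chain passes electrons from NADH and succinate to oxygen and pumps protons across the inner mitochondrial membrane, and the ATP synthase uses the proton gradient to make ATP. Complexes I, III, IV and V are built from subunits of both genomes, whereas complex II is built from nuclear genes alone. Mitochondrial genes are transcribed inside the organelle from both strands as long precursors, and nuclear subunits are translated in the cytosol and imported, so a complete complex needs products of both routes.

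Cells were barcodes with at least 5000 UMIs and at least 500 genes, with no ceiling on mitochondrial UMIs, which left 4301, 3485, 3507 and 3876 cells for DMSO, fulvestrant, neratinib and both drugs, the order used throughout. The libraries held 82967775 to 102504452 UMIs in these cells, with medians of 22007 to 23010 UMIs per cell. At most 6 cell barcodes were shared by any pair of libraries, and 23 in all. All 12 listed BT474 identity markers had a mean of at least 10 CPM (counts per 1000000 UMIs). The 8 immune markers summed to 0.985 to 1.17 CPM and the 5 endothelial markers to 1.78 to 2.49 CPM per library. The 7 fibroblast markers summed to 10.2 to 12.4 CPM, nearly all from COL1A1. The T cell genes CD3D and CD3E and the fibroblast genes COL1A2 and PDGFRB were at 0 UMIs in every library. Levels below are CPM of UMIs summed over the cells of a library, and ratios are log2 ratios of CPM with exact 95% counting intervals in square brackets. Neratinib was read in a pair without fulvestrant (neratinib against DMSO) and in a pair with it (both drugs against fulvestrant), which share no library. A gene is called higher where its CPM was at least 25% above that of the other library, and lower where it was at least 20% below, which is 0.32 on the log2 scale in either direction. Calls were made for genes with a mean of at least 10 CPM, which 79 nuclear and all 13 mitochondrial members had.

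As shares of all UMIs, the libraries with neratinib held more mitochondrial and less nuclear respiratory chain RNA, the nuclear difference turning to above 0 with median-of-ratios scaling. The mitochondrial members held 16.7% and 17.3% of all UMIs in the libraries without neratinib, and 21.5% and 21.5% in those with it. The nuclear members held 2.54%, 2.49%, 2.32% and 2.28%. The libraries with neratinib therefore lay above the others for the mitochondrial members and below them for the nuclear members. Summed mitochondrial RNA had a ratio of 0.36 [0.36, 0.37] for neratinib against DMSO and 0.31 [0.31, 0.31] for both drugs against fulvestrant. Summed nuclear RNA had ratios of -0.13 [-0.13, -0.13] and -0.12 [-0.13, -0.12]. Mitochondrial UMIs per nuclear-member UMI, a measure that no scaling between libraries can alter, were 6.55, 6.96, 9.23 and 9.40, a 1.41-fold difference for neratinib against DMSO and 1.35-fold for both drugs against fulvestrant.

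The sign of the nuclear difference rested on the scaling, while that of the mitochondrial difference did not. Over all 7239 genes with a mean of at least 10 CPM the median ratio was -0.18 for neratinib against DMSO and -0.17 for both drugs against fulvestrant, so the typical gene had a lower share in the neratinib libraries. The nuclear members had medians of -0.14 and -0.13, slightly above the typical gene. Scaled to non-mitochondrial UMIs, nuclear members held 3.05%, 3.01%, 2.96% and 2.91%, and their summed ratios were -0.045 and -0.050. With median-of-ratios scaling, which sets the typical gene near 0, the summed nuclear ratios were 0.054 and 0.046 and the mitochondrial ratios 0.55 and 0.48. In UMIs per cell the mitochondrial members averaged 3973, 4159, 5078 and 5046, the nuclear members 606, 597, 550 and 537, and all other genes 19253, 19245, 18030 and 17919. Sequencing aimed at the same 60000 reads per cell in every library, so more mitochondrial RNA and less of all other RNA cannot be told apart in these counts.

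**Figure D1:**
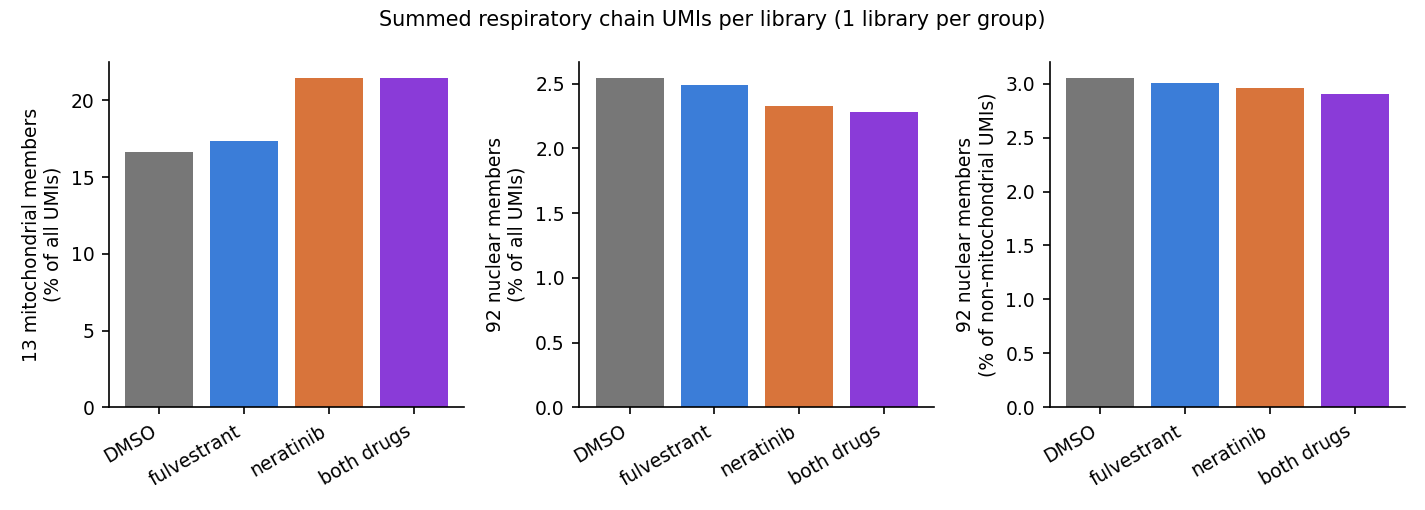
Bars show the UMIs of the 13 mitochondrial members as a percentage of all UMIs, and of the 92 nuclear members as a percentage of all UMIs and of non-mitochondrial UMIs, in the 4 libraries (1 library per bar, so no error bars). The mitochondrial share was 16.7% and 17.3% without neratinib and 21.5% and 21.5% with it, while the nuclear share of non-mitochondrial UMIs went from 3.05% to 2.91%.

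All 13 mitochondrial members had positive ratios in both neratinib pairs under all 3 scalings. For neratinib against DMSO 6 of 13 were called higher and 0 lower, where 8.14% of all tested genes were higher and 32.5% lower. For both drugs against fulvestrant 3 of 13 were higher and 0 lower, where 8.16% of all genes were higher and 31.3% lower. MT-CYB, the cytochrome b of complex III and the only mitochondrial gene of that complex, had 18574, 19661, 25100 and 25521 CPM, with ratios of 0.43 [0.43, 0.44] and 0.38 [0.37, 0.38]. MT-CO2, which carries the copper site that accepts electrons from cytochrome c, had 37817, 38819, 50369 and 50259 CPM, with ratios of 0.41 and 0.37. MT-ND4, a proton-pumping subunit of complex I, had 13676, 14701, 18275 and 18604 CPM, with ratios of 0.42 and 0.34. These 3 genes were called in both pairs, and in each of them both neratinib libraries lay above both others. MT-CO3 (0.36 and 0.30), MT-ND1 (0.34 and 0.25) and MT-ATP6 (0.33 and 0.25) were called against DMSO only. These counts rest on the scaling. Scaled to non-mitochondrial UMIs, 9 and 7 of 13 were called higher, beside 11.1% and 11.1% of all genes. With median-of-ratios scaling 12 and 13 were, beside 16.3% and 16.8%, MT-CO3, MT-ND1 and MT-ATP6 then being called in both pairs.

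The remaining 7 mitochondrial members were called in neither pair. MT-CO1, the catalytic subunit of complex IV, had 18163, 19009, 22213 and 22196 CPM, with ratios of 0.29 and 0.22. The complex I subunits MT-ND2 (0.31 and 0.26), MT-ND5 (0.26 and 0.19) and MT-ND3 (0.20 and 0.29) were also under the limit. MT-ND6, the only member transcribed from the light strand, had 282, 280, 323 and 312 CPM, with ratios of 0.19 [0.17, 0.22] and 0.16 [0.14, 0.19]. MT-ND4L (0.17 and 0.23) and MT-ATP8 (0.10 and 0.19) overlap MT-ND4 and MT-ATP6 on the same strand, so their counts are uncertain. These overlaps also bear on the counts of MT-ND4 and MT-ATP6, and MT-ATP6 overlaps MT-CO3 on that strand. The make-up of the mitochondrial pool moved little: MT-CYB was 11.1%, 11.3%, 11.7% and 11.9% of mitochondrial UMIs, MT-CO1 10.9%, 11%, 10.3% and 10.3%, and MT-ND6 0.169%, 0.161%, 0.150% and 0.146%.

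Nuclear members were seldom called. For neratinib against DMSO 1 of 79 was higher and 8 lower, and for both drugs against fulvestrant 1 was higher and 6 lower, shares below those of all tested genes given above. The higher member was UQCRHL in each pair, which was under 10 CPM in both libraries without neratinib. Ratios below 0 were had by 59 and 62 of the 79 in the 2 pairs, beside 5197 and 5103 of all 7239 tested genes, which are similar shares. In both pairs 57 of the 79 had a ratio below 0 and 15 a ratio above 0, but with median-of-ratios scaling these numbers were 29 and 43. That scaling left 4 higher and 1 lower against DMSO, where 16.3% of all genes were higher and 16.8% lower, and 3 higher and 1 lower on top of fulvestrant, where 16.8% and 17.1% were. Scaled to non-mitochondrial UMIs, 1 was higher and 3 lower in each pair, beside 11.1% and 24.2% of all genes against DMSO and 11.1% and 24.3% on top of fulvestrant. Among genes with a mean of at least 100 CPM 6 of 65 nuclear members were lower against DMSO and 0 higher, beside 26% and 4.01% of all genes at that level. Single members still stood apart, in the same direction in both pairs, as the plot of the 2 neratinib pairs shows.

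**Figure D2:**
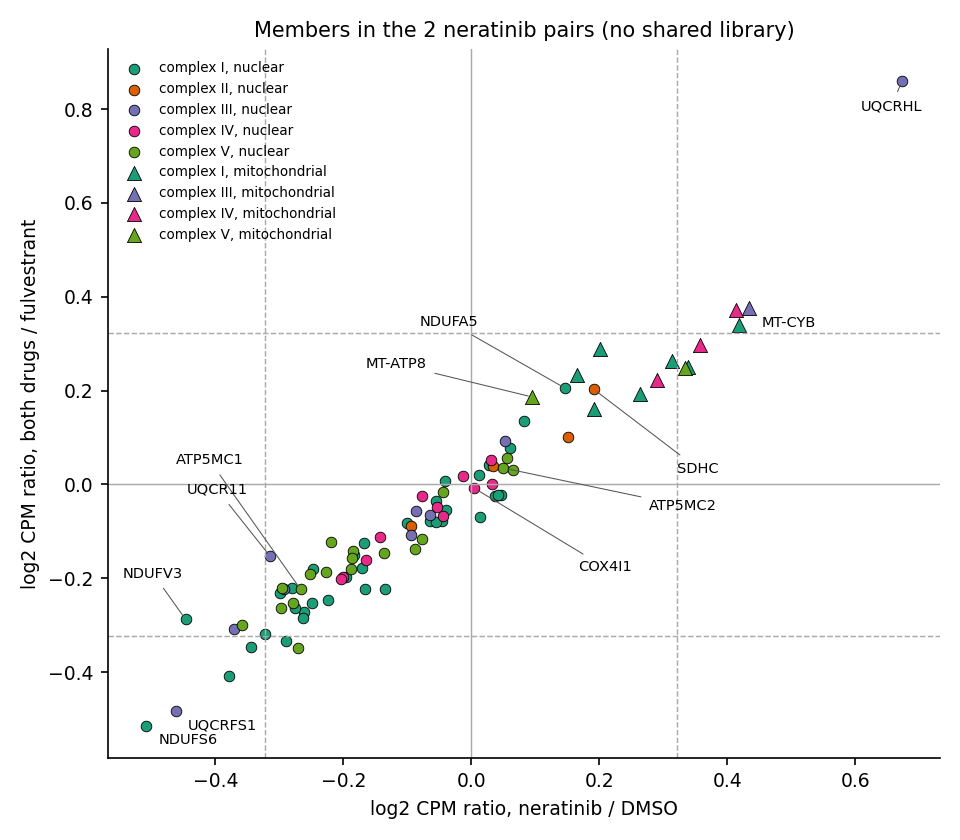
Each point is a member with a mean of at least 10 CPM, placed by its log2 CPM ratio for neratinib against DMSO and for both drugs against fulvestrant (circles nuclear, triangles mitochondrial, colours by complex, dashed lines at the 0.32 limit of a call). All 13 triangles lie above 0 on both axes, 57 circles lie below 0 on both, and NDUFS6 and UQCRFS1 are the lowest nuclear members. Of all 7239 tested genes, not drawn here, 5197 and 5103 were below 0 in these pairs.

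Complex I oxidises NADH. Its 7 mitochondrial members summed to ratios of 0.33 and 0.29 in the neratinib pairs, and the nuclear genes with NDUF symbols to -0.16 and -0.16 (0.02 and 0.01 with median-of-ratios scaling). NDUFS6, a zinc-binding accessory subunit of the peripheral arm, had 995, 963, 699 and 675 CPM. Both libraries with neratinib were far below both without it, with ratios of -0.51 [-0.52, -0.49] and -0.51 [-0.53, -0.50], and it was the one nuclear member called lower in both pairs under all 3 scalings (-0.32 and -0.34 with median-of-ratios). NDUFB10, an accessory subunit of the membrane arm, had 354, 351, 272 and 264 CPM, with ratios of -0.38 and -0.41. NDUFS8, a core subunit that carries iron-sulfur clusters, had 564, 567, 444 and 446 CPM, with ratios of -0.34 and -0.35. NDUFB10 and NDUFS8 were called in both pairs, with -0.19 and -0.24, and -0.16 and -0.18, after median-of-ratios scaling. NDUFV3, an accessory subunit of the NADH-binding module, had 62.3, 58.6, 45.7 and 48.1 CPM and was called against DMSO only (-0.45 [-0.50, -0.39] and -0.29 [-0.35, -0.23]). NDUFA6 (-0.32 and -0.32) was just past the limit against DMSO, and NDUFA13 (-0.29 and -0.33) on top of fulvestrant. NDUFA13 overlaps another protein-coding gene on the same strand in GENCODE 29, so its count is uncertain. The same holds for NDUFA7, NDUFA11, NDUFB2, NDUFB8, NDUFC2, NDUFS3, SDHD, UQCR11, COX6A1, COX6B2, COX8A, ATP5MG and ATP5MGL among the nuclear members given below.

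Among the nuclear NDUF genes, the catalytic core of complex I lay above the others as a sum. The 7 nuclear core subunits summed to -0.08 [-0.09, -0.07] and -0.11 [-0.12, -0.10] in the neratinib pairs. The other 34 genes with NDUF symbols summed to -0.18 [-0.19, -0.18] and -0.18 [-0.18, -0.17]. Those 34 include NDUFA4, the read-through gene NDUFC2-KCTD14 and antisense RNAs, so the sum is not one of accessory subunits alone. Of the core, NDUFS3 had 124, 124, 129 and 130 CPM (0.06 and 0.08), and NDUFS7 118, 121, 105 and 104 CPM (-0.17 and -0.22). Some accessory subunits lay at the other end, led by NDUFA5 with 177, 177, 196 and 204 CPM (0.15 and 0.21) and NDUFA10 with 150, 146, 159 and 160 CPM (0.08 and 0.13). NDUFA4, named for complex I but known as a subunit of complex IV, had 1427, 1424, 1388 and 1372 CPM (-0.04 and -0.05).

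Promoter sequence is shown for NDUFS6 and NDUFB10, which were lower in both neratinib pairs, and for ATP5MC1, described below. The stretches are the 250 bases before the RefSeq start, from GRCh38.p14 and on the plus strand: chr5:1801157-1801406, chr16:1959288-1959537 and chr17:48892537-48892786. Capitals mark matches of the motifs searched.
NDUFS6: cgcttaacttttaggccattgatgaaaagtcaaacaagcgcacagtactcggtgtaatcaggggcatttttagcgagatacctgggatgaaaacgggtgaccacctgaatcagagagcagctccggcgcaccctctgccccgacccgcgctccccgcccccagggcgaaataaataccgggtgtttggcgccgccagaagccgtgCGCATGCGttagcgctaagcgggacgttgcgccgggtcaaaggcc
NDUFB10: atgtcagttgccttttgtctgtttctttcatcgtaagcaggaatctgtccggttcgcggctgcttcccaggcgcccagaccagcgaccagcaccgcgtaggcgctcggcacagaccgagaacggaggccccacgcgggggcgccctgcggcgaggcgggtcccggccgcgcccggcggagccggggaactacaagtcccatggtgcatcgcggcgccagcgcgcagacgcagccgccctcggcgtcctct
ATP5MC1: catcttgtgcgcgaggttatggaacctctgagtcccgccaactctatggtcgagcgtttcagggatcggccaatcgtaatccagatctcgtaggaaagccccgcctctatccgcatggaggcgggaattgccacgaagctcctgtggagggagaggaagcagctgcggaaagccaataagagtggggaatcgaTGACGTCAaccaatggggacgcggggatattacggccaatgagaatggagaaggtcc
In NDUFS6 the capitals are overlapping matches, on both strands, of the NRF1 core GCATGCG, 45 to 38 bases before the start. In ATP5MC1 they are overlapping matches of the CRE motif TGACGTC, 57 to 50 bases before the start. NDUFB10 held no match.

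Windows were found for 73 of the 92 nuclear members, 64 of them with a mean of at least 10 CPM. Both strands of the first window listed for a gene were searched. The NRF1 core was in 12 of these 64 members (18.8%), in 6.74% of 5833 expressed genes and in 3.39% of all 35116 windows. Members with it had medians of -0.13 and -0.15 in the neratinib pairs, and those without it close values of -0.14 and -0.13. The ETS core CCGGAAG was in 17 members (26.6%; 19.6% of expressed genes and 8.52% of all windows). The CRE motif was in 5 members (7.81%; 6.0% and 3.12%), as were the ERR motif AAGGTCA (7.81%; 1.87% and 3.44%) and the E-box CACGTG (7.81%; 9.74% and 6.34%). The YY1 core ATGGCGG was in 4 members (6.25%; 4.59% and 2.88%), and the FOXO core GTAAACA in 0 members, beside 2.02% of expressed genes and 2.98% of all windows. Medians with and without the other motifs lay apart in some cases. In the 2 neratinib pairs they were -0.27 and -0.22 with the CRE motif against -0.14 and -0.14 without it, -0.30 and -0.22 with the E-box against -0.13 and -0.12, and -0.24 and -0.24 with the YY1 core against -0.14 and -0.13, each from 4 or 5 members with a match. For the ERR motif they were -0.17 and -0.14 against -0.14 and -0.14, and for the ETS core -0.09 and -0.09 against -0.17 and -0.15. A match is a string of letters and not a bound site.

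Complex II, the succinate dehydrogenase, is also an enzyme of the TCA cycle. Its 4 genes had the only nuclear sum above 0 in the neratinib pairs, at 0.13 [0.11, 0.14] and 0.11 [0.09, 0.13]; with median-of-ratios scaling, where all nuclear sums were above 0, it was the highest at 0.31 and 0.28. SDHC, a membrane anchor, had 178, 181, 203 and 208 CPM, with ratios of 0.19 [0.16, 0.22] and 0.20 [0.17, 0.23]. SDHA, the flavoprotein, had 210, 207, 233 and 222 CPM (0.15 and 0.10). Both genes were higher in each neratinib library than in both others. SDHD (0.03 and 0.04), the other anchor, and SDHB (-0.09 and -0.09), the iron-sulfur subunit, lay near 0. None of the 4 was called, although SDHC (0.38 and 0.37) passed the limit in both pairs with median-of-ratios scaling and SDHA (0.34 and 0.27) passed it against DMSO.

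**Figure D3:**
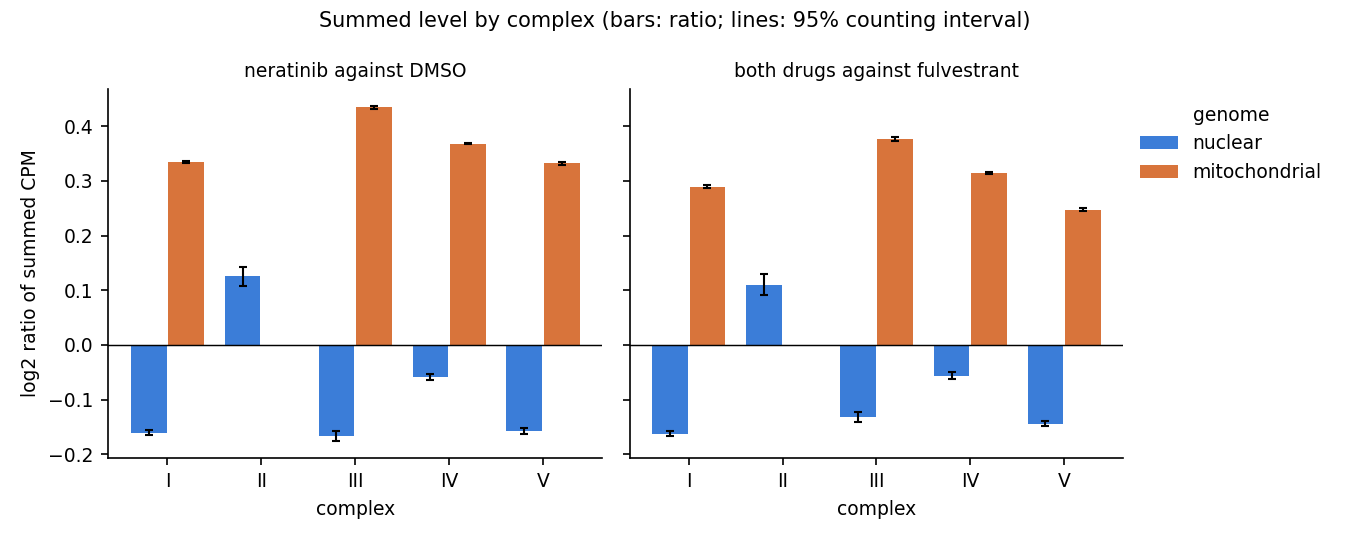
Bars show log2 ratios of summed CPM of nuclear and mitochondrial members of each complex for neratinib against DMSO and for both drugs against fulvestrant, with 95% counting intervals as lines. Mitochondrial sums are above 0 in complexes I, III, IV and V, and among nuclear sums only that of complex II is, a sign that turns to above 0 for the others with median-of-ratios scaling. Complexes are assigned by gene symbol, which places NDUFA4 in complex I.

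Complex III passes electrons from ubiquinol to cytochrome c, and of the 4 complexes of both genomes it had the largest folds in mitochondrial UMIs per nuclear UMI. They were 1.52 and 1.42 in the neratinib pairs, from values of 7.94, 8.73, 12.0 and 12.4. UQCRFS1, the Rieske iron-sulfur protein, had 178, 176, 129 and 126 CPM, both neratinib libraries lying well below both others. Its ratios were -0.46 [-0.50, -0.43] and -0.48 [-0.52, -0.45], and -0.28 and -0.31 with median-of-ratios scaling. The small subunit UQCR10 had 359, 336, 278 and 271 CPM (-0.37 and -0.31), and UQCRQ 193, 177, 157 and 152 CPM (-0.29 and -0.22). UQCRB (-0.09 and -0.06) and the core protein UQCRC2 (0.05 and 0.09) were near 0.

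The hinge protein UQCRH and its intronless copy UQCRHL differed in their ratios. UQCRH had 608, 596, 582 and 570 CPM (-0.06 and -0.07). UQCRHL had 8.90, 9.68, 14.2 and 17.6 CPM, with ratios of 0.67 [0.55, 0.80] and 0.86 [0.74, 0.98], and was the one nuclear member called higher. The genes are nearly identical in sequence and reads can be split between them in counting, so UQCRHL is reported as uncertain. Its level was also under 10 CPM in both libraries without neratinib. It met the mean of 10 CPM only through the libraries where it was high, so its higher calls are not read as a result.

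Complex IV reduces oxygen, and none of its 11 nuclear members with a mean of at least 10 CPM was called in any pair. Their sums were -0.06 and -0.06 in the neratinib pairs, 0.03 and 0.02 when scaled to non-mitochondrial UMIs and 0.13 and 0.11 with median-of-ratios scaling. COX4I1 had 879, 887, 882 and 882 CPM, and COX6A1 510, 510, 522 and 510 CPM, the libraries being close to one another. The lowest were COX7B with 290, 282, 253 and 246 CPM (-0.20 and -0.20) and COX5A (-0.20 and -0.20). COX8A (-0.04 and -0.07), COX6B1 (-0.16 and -0.16) and COX7A2 (-0.14 and -0.11) lay between. COX7A2L (0.03 and 0.05), which takes part in supercomplexes, lay slightly above 0. The 3 mitochondrial members of the complex summed to 0.37 and 0.31, so mitochondrial UMIs per nuclear UMI were 16.3, 17.2, 21.9 and 22.2. NDUFA4 is left out of these nuclear sums, as complexes were assigned by gene symbol.

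Minor isoforms and copies of complex IV and other subunit genes, some of them restricted to other tissues, were near 0. COX4I2 and COX7B2 had 0 UMIs in every library, where 3 UMIs, the floor set for a count of 0, would be 0.0293, 0.0359, 0.0362 and 0.0329 CPM. COX6A2 had 2 UMIs in all, and COX7A1 had 2. COX6B2 had 18, 20, 36 and 34 UMIs. COX8C, the testis isoform of COX8, had 5, 4, 16 and 25 UMIs, and it overlaps UNC79 on the same strand. NDUFA4L2 had 21, 15, 7 and 20 UMIs, and ATP5MGL, a copy of the synthase subunit gene ATP5MG, had 43, 48, 44 and 57, while ATP5MG itself had 323, 308, 284 and 279 CPM. Besides these 8 genes, 5 members were below a mean of 10 CPM: NDUFA7, the antisense RNAs NDUFB2-AS1 and NDUFV2-AS1, and the read-through genes ATP5MF-PTCD1 and NDUFC2-KCTD14.

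Complex V, the ATP synthase, had nuclear sums of -0.16 and -0.14 and mitochondrial sums of 0.33 and 0.25 in the neratinib pairs. The 5 genes of the catalytic F1 head summed to -0.07 [-0.08, -0.06] and -0.07 [-0.08, -0.06], and the other nuclear members to -0.20 [-0.20, -0.19] and -0.18 [-0.18, -0.17]. In the head, the alpha subunit ATP5F1A had 366, 358, 381 and 372 CPM (0.06 and 0.06) and the beta subunit ATP5F1B 619, 625, 648 and 639 CPM (0.07 and 0.03), whereas the small epsilon subunit ATP5F1E had 463, 434, 377 and 372 CPM (-0.30 and -0.22). ATP5ME, a membrane subunit at the dimer interface, had 88.0, 85.8, 68.7 and 69.7 CPM (-0.36 [-0.41, -0.31] and -0.30 [-0.35, -0.25]). It was the only nuclear member of the complex called for neratinib against DMSO, and it was not called there with either other scaling. ATP5IF1, which inhibits the synthase rather than forming part of it, had 352, 338, 290 and 284 CPM (-0.28 and -0.25). ATP5S, the distantly related coupling factor B gene, had 29.3, 28.0, 23.9 and 23.4 CPM (-0.30 and -0.26).

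The ring of c subunits comes from 3 genes that encode the same mature protein behind different import sequences, and their ratios differed. ATP5MC1 had 1288, 1227, 1070 and 1051 CPM, with ratios of -0.27 [-0.28, -0.25] and -0.22 [-0.24, -0.21]. ATP5MC3 had 600, 609, 497 and 478 CPM, with ratios of -0.27 and -0.35, the latter past the limit. ATP5MC2 had 559, 564, 579 and 578 CPM, with ratios of 0.05 [0.03, 0.07] and 0.04 [0.02, 0.05]. Both libraries with neratinib were below both others for ATP5MC1 and ATP5MC3, and slightly above them for ATP5MC2.

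Fulvestrant left the members close to their controls. Of 79 nuclear and 13 mitochondrial members 0 were called for fulvestrant against DMSO, beside 0.207% of all genes higher and 0.981% lower, and 0 for both drugs against neratinib, beside 0.193% and 1.06%. Summed ratios were -0.03 and -0.03 for the nuclear members and 0.06 and 0.00 for the mitochondrial members. Mitochondrial UMIs per nuclear UMI were 1.06-fold and 1.02-fold higher. UQCR11, a small subunit of complex III, had the lowest mean of these 2 ratios, with 144, 122, 116 and 110 CPM and ratios of -0.24 [-0.27, -0.20] against DMSO and -0.08 [-0.12, -0.03] on top of neratinib. These 4 genes are among those with an uncertain count, since each overlaps a protein-coding gene on its strand: beside UQCR11, NDUFC2 had 164, 150, 143 and 131 CPM (-0.13 and -0.13), NDUFB8 117, 109, 99.9 and 92.1 CPM (-0.09 and -0.12), and NDUFA11 78.4, 71.1, 63.8 and 60.5 CPM (-0.14 and -0.08). At the other end lay UQCRHL (0.12 and 0.31), NDUFB6 (0.06 and 0.03), NDUFB5 (0.07 and 0.00) and SDHC (0.03 and 0.04).

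With both drugs, 6 of 13 mitochondrial members were higher than with DMSO and 0 lower, and 1 of 79 nuclear members was higher and 18 lower, beside 8.83% of all genes higher and 32.9% lower. Scaled to non-mitochondrial UMIs 1 nuclear member was higher and 3 lower (12.3% and 25.2% of all genes). Under median-of-ratios 3 were higher and 2 lower (17.9% and 18.2%). This pair shares its DMSO library with both single-drug pairs. The summed ratios were 0.36 and -0.16. Members called lower here and in neither neratinib pair included NDUFB4 with 404, 387, 334 and 323 CPM, NDUFB2 with 538, 494, 444 and 424 CPM, and NDUFC2, NDUFB8, NDUFA11, UQCRQ, UQCR11 and ATP5S. NDUFB2 and its antisense RNA overlap, and without the counting strand they cannot be told apart. Among the 79 nuclear members with a mean of at least 10 CPM, the neratinib ratio on top of fulvestrant, minus that against DMSO, was -0.09 to 0.19. UQCRHL (0.19), UQCR11 (0.16) and NDUFV3 (0.16) were at the upper end.

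In single cells the mitochondrial share was shifted as a whole distribution. The 10th to 90th percentile of cells spanned 12.8% to 21.1% with DMSO, 13.1% to 21.8% with fulvestrant, 16.8% to 26.6% with neratinib and 16.6% to 26.8% with both drugs. The share of nuclear members among non-mitochondrial UMIs had medians of 3.05%, 3.00%, 2.95% and 2.89%, with spans of 2.51% to 3.52% for DMSO and 2.33% to 3.36% for both drugs. Among cells of 20000 to 40000 UMIs the mitochondrial share was 16.2%, 16.7%, 20.8% and 20.8%, and the nuclear members had 30921, 30507, 30060 and 29557 CPM of non-mitochondrial UMIs. In each of the 4 depth ranges the neratinib libraries had a higher mitochondrial share than their controls. The gap was narrow for both drugs against fulvestrant in cells of 5000 to 10000 UMIs, with 32.7% against 32.3%.

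**Figure D4:**
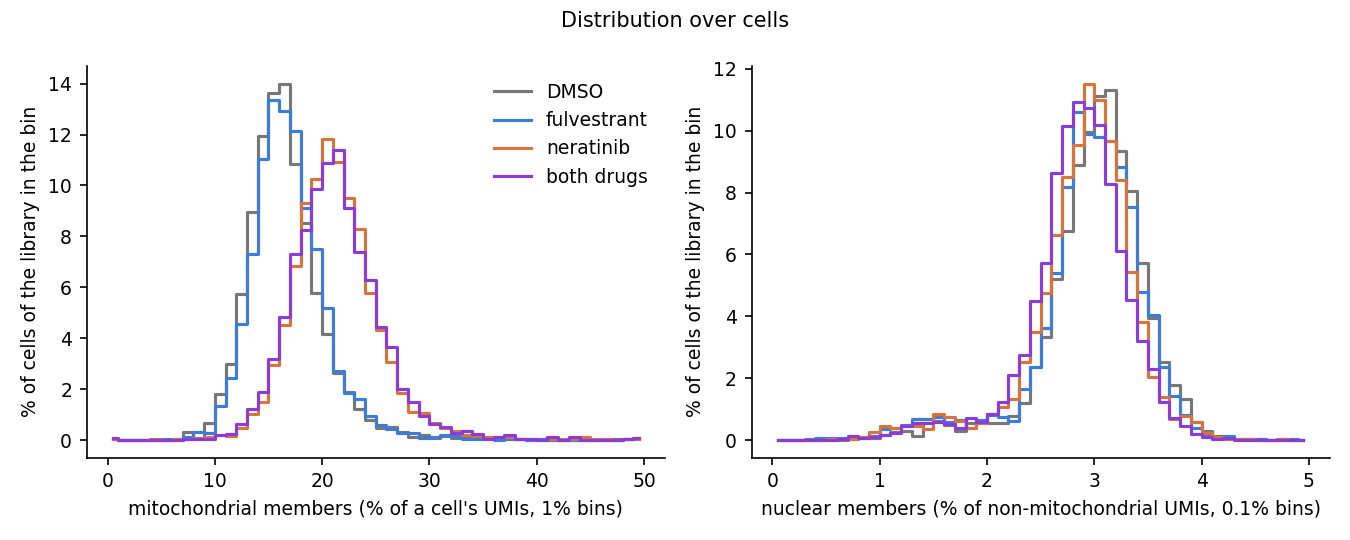
Lines are histograms over cells of each library: the mitochondrial members as a percentage of a cell's UMIs in 1% bins, and the nuclear members as a percentage of its non-mitochondrial UMIs in 0.1% bins. The mitochondrial curves of both libraries with neratinib lie to the right of the others (10th percentile 16.8% and 16.6%, against 12.8% and 13.1%), while the nuclear curves overlap.

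Cells with a like mitochondrial share were set side by side to see whether nuclear members followed it. At 15% to 20% mitochondrial UMIs they had 31025, 30520, 29390 and 28766 CPM of non-mitochondrial UMIs, and at 20% to 25% they had 31565, 31156, 29939 and 29498, both libraries with neratinib lying below both others. At 25% to 30% the order was the opposite, with 29589, 27272, 30015 and 29710 from 71, 57, 399 and 487 cells. Cells with 30% or more were 99, 123, 168 and 182 in number and had 23672, 21411, 25411 and 25866, both libraries with neratinib again lying above both others. In those cells the nuclear RNA MALAT1 had 108139, 134543, 81915 and 73810 CPM of non-mitochondrial UMIs, against 41884, 43499, 46375 and 51148 at 15% to 20%, and their median depth was 9164 to 11864 UMIs. Without them the summed mitochondrial ratios were 0.35 and 0.32 in the neratinib pairs. Nuclear complex I and complex V shares of single cells had Pearson correlations of 0.73, 0.78, 0.75 and 0.73 over the cells of a library, which share their depth and denominator.

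**Figure D5:**
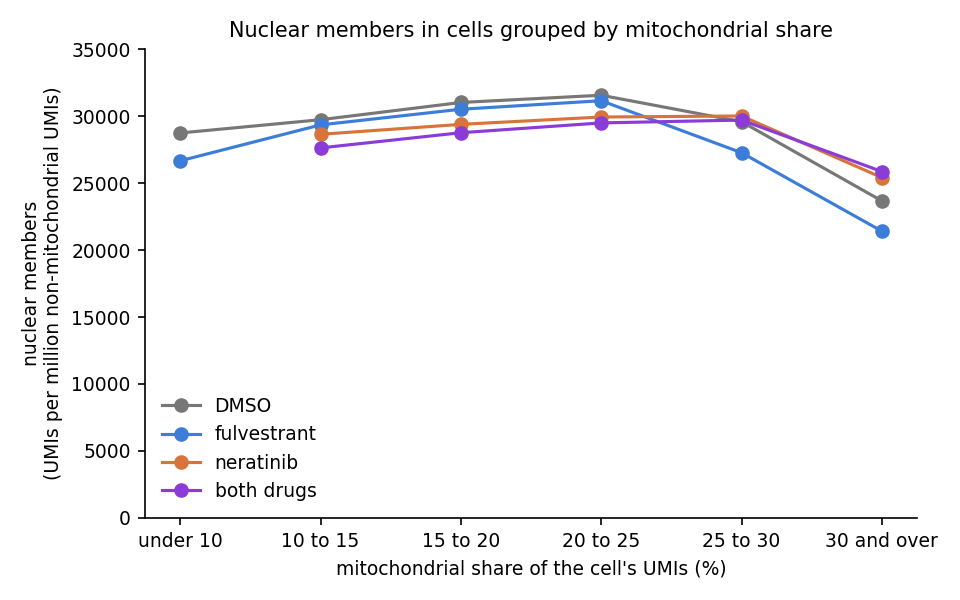
Points give the level of nuclear members in CPM of non-mitochondrial UMIs, summed over the cells of a library within a range of mitochondrial share (x axis, percent of the cell's UMIs). At 15% to 20% the values run from 31025 (DMSO) to 28766 (both drugs), and they are lowest at 30% and over, from 21411 (fulvestrant) to 25866 (both drugs).

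Barcodes too shallow to be counted as cells had no one order of mitochondrial shares. Those of 100 to 1000 UMIs had 19.2%, 19.0%, 17% and 16.9%, and those of 1000 to 5000 UMIs 25.8%, 24.9%, 22.1% and 23.3%, both libraries with neratinib lying below both others. Those of 10 to 100 UMIs had 8.55%, 6.74%, 8.65% and 8.04%, so that neratinib was slightly above DMSO, and both drugs above fulvestrant, as in cells.

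Genes that serve the respiratory chain were read from lists chosen with earlier results of these data known. Their counts stand beside all tested genes, of which 32.5% were lower and 8.14% higher for neratinib against DMSO and 31.3% and 8.16% for both drugs against fulvestrant, or 16.8% and 16.3%, and 17.1% and 16.8%, with median-of-ratios scaling. Complex assembly factors had 18 lower and 0 higher of 41 for neratinib against DMSO (median -0.23) and 17 lower and 1 higher for both drugs against fulvestrant (median -0.16). With median-of-ratios scaling these were 12 lower and 4 higher, and 10 lower and 9 higher. As shares of the 41, 43.9% and 41.5% were lower, somewhat above all genes. The complex I assembly factor NDUFAF4 had 41.1, 35.6, 18.4 and 18.3 CPM (-1.16 and -0.96), NDUFAF8 117, 112, 67.2 and 62.7 CPM (-0.80 and -0.84), and the complex IV factor PET117 15.7, 15.1, 7.95 and 7.16 CPM (-0.98 and -1.08). All 3 stood lower in both neratinib libraries, and by more than any nuclear subunit.

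Protein import genes and mitochondrial chaperones had 17 lower and 1 higher of 36 (median -0.30) and 15 lower and 1 higher (median -0.27) in the same pairs, shares of 47.2% and 41.7% lower. Under median-of-ratios 12 and 8 were lower and 1 and 1 higher. The outer membrane channel TOMM40 had 137, 126, 72.1 and 73.6 CPM (-0.92 and -0.78), the inner membrane channel TIMM23 15.2, 13.1, 8.05 and 8.54 CPM (-0.92 and -0.62), and the carrier chaperone TIMM8A 15.6, 12.9, 6.95 and 6.85 CPM (-1.16 and -0.91). Among electron carriers and quinone synthesis 8 of 24 were lower and 2 higher, and 9 and 2 on top of fulvestrant, against DMSO the share of all genes. With median-of-ratios scaling 4 and 5 were lower and 3 and 4 higher. CYCS, which encodes cytochrome c, had 385, 377, 228 and 235 CPM (-0.75 and -0.68), the quinone synthesis gene PDSS1 14.6, 13.3, 7.99 and 8.43 CPM (-0.87 and -0.66), and COQ8A 11, 9.44, 18.9 and 19.2 CPM (0.78 and 1.02). TCA cycle and pyruvate dehydrogenase genes had 1 lower and 1 higher of 22, and 2 and 1 on top of fulvestrant, shares below those of all genes (under median-of-ratios 1 and 1 were lower and 3 and 3 higher), with the isocitrate dehydrogenase subunit IDH3A lower (30.3, 28.5, 15.8 and 16.6 CPM) and the pyruvate dehydrogenase kinase PDK2 higher (25.1, 25.1, 41.7 and 38.3 CPM).

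Mitochondrial transcription and RNA processing genes had 9 lower and 4 higher of 29, and 7 and 6 on top of fulvestrant. With median-of-ratios scaling higher calls outnumbered lower ones, with 4 and 3 lower and 6 and 6 higher. FASTKD2 had 25.9, 22.6, 13.8 and 14.1 CPM (-0.91 and -0.68), PNPT1, a mitochondrial RNA-degrading enzyme, 33.7, 31.2, 20.2 and 21.2 CPM (-0.73 and -0.56), and the oligoribonuclease REXO2 56.9, 55.2, 101 and 96.6 CPM (0.82 and 0.81). Chosen for their role after their values were seen, the mitochondrial RNA polymerase POLRMT had 14.3, 13.4, 9.12 and 8.66 CPM (-0.65 and -0.63) and the transcription factor TFAM 73.5, 70.9, 59.0 and 60.5 CPM (-0.32 and -0.23). Regulators of mitochondrial biogenesis had 4 lower and 1 higher of 12, and 4 and 2 on top of fulvestrant, near the share of all genes. With median-of-ratios scaling 2 and 2 were lower and 3 and 3 higher. The rule named the NRF2 subunit GABPB1 (-0.64 and -0.61), the nuclear receptor ESRRA (-0.63 and -0.42) and HCFC1 (-0.40 and -0.46). MYC, which drives growth genes and was singled out after its values were seen, had the largest ratios of this list, with 75.8, 15.6, 60.5 and 5.92 CPM: -2.28 for fulvestrant against DMSO, -3.35 for both drugs against neratinib, and -0.32 and -1.40 in the neratinib pairs. The part of these genes in the levels of the 13 mitochondrial members was not tested.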

How the data were processed

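The deposited matrix holds unnormalised UMI counts per gene and barcode for 4 libraries together. Its header gives software version 3.1.0, which the submitters' processing notes name as Cell Ranger. Those notes name hg19, but 33456 of 33538 gene identifiers are in GENCODE 29 (GRCh38), so no coordinates are given besides those of the RefSeq promoter windows. The counting strand and whether depth was evened at merging are not given in the sources used here. In GENCODE 29, 66 of the 105 members overlap another gene on either strand. Barcodes were assigned by the library number that ends each barcode and starts each sample title. Doublets were not removed: no caller was run, and leaving out the 5% of cells with most UMIs was an alternative.

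Counts were summed over cells (at least 5000 UMIs and 500 genes) with Python 3.11.15, numpy 2.4.6, scipy 1.17.1 and pandas 2.3.3. Log2 ratios were taken on CPM without a pseudocount, with exact conditional binomial 95% intervals, which cover counting error only. The script was tested on simulated data. Named are all mitochondrial members, the member with most UMIs per complex, the 8 highest and 8 lowest by the neratinib pairs, the 4 highest and 4 lowest by the fulvestrant pairs, all called in a pair, isoform pairs, and up to 3 per companion list. A few other members are given for comparison within their complex and were chosen after their values were seen. Members and lists were chosen with earlier results of these data known. Alternatives were 2 other scalings, other cell filters, a mean of at least 1 CPM and call limits of 1.1-fold and 1.5-fold. Promoter windows are RefSeq's (GRCh38.p14).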

Additional observations from a re-analysis of the deposited data

Results flagged for a closer look

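Barcodes too shallow to be cells were not part of the comparisons, and 3 of their values lay above the DMSO library. Mitochondrial UMIs per nuclear-member UMI were 16.2 with fulvestrant and 14.6 with both drugs in barcodes of 1000 to under 5000 UMIs, where DMSO had 14.4. In barcodes of 10 to under 100 UMIs neratinib had 2.69 and DMSO 2.65.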

How the results depend on the processing

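No paired analysis was possible because each group is 1 library, and no library could be left out. With at most 20% mitochondrial UMIs per cell, a limit on the measured quantity itself that kept 3671, 2875, 1317 and 1463 cells, the summed log2 ratios for fulvestrant, neratinib and both drugs against DMSO, both drugs against neratinib and both drugs against fulvestrant were -0.025, -0.094, -0.13, -0.032 and -0.10 for nuclear members and 0.031, 0.19, 0.18, -0.0099 and 0.15 for mitochondrial members. That limit left 0, 0 and 0 mitochondrial members past the limit of a call in the 3 pairs with neratinib in 1 library only, and 10 nuclear members for both drugs against DMSO. The share of all genes was not counted in that setting, so the 10 cannot be set against it. Scaled to non-mitochondrial UMIs, the nuclear sums were -0.021, -0.045, -0.070 and, against fulvestrant, -0.050, the mitochondrial sums 0.067, 0.45, 0.45 and 0.38, and the members past the limit 4 nuclear in each of those 3 pairs, with 10 and 7 mitochondrial for both drugs against DMSO and against fulvestrant. Median-of-ratios scaling gave nuclear sums of -0.025, 0.054, 0.021, -0.033 and 0.046, which turned the sign with neratinib, and mitochondrial sums of 0.063, 0.55, 0.54, -0.0071 and 0.48, with 5, 5 and 4 nuclear and 12, 13 and 13 mitochondrial members past the limit. With at least 10000 UMIs per cell the mitochondrial sums were 0.051, 0.37, 0.37 and, against fulvestrant, 0.32, and the nuclear sum there -0.13. Without the 5% of cells with most UMIs, the nuclear sums with neratinib were -0.14, -0.16 and -0.13, and the mitochondrial sums 0.059 for fulvestrant, 0.37 for neratinib, -0.0031 against neratinib and 0.31 against fulvestrant. Without cells of 30% or more mitochondrial UMIs, an alternative chosen after seeing the data, the nuclear sums against DMSO were -0.026, -0.12 and -0.15, and the mitochondrial sums 0.035, 0.35 and 0.35, with 0.32 against fulvestrant. A limit of 1.1-fold gave 43 nuclear members for neratinib against DMSO (4 higher and 39 lower, beside 16.2% and 55.7% of all genes), 45 for both drugs against DMSO (3 and 42, beside 18.4% and 54.9%) and 41 for both drugs against fulvestrant (3 and 38, beside 17.6% and 54.3%), with 12, 13 and 13 mitochondrial members, all higher. It gave 2 nuclear members for fulvestrant (0 and 2, beside 3.66% and 6.46%) and 1 for both drugs against neratinib (1 and 0, beside 6.09% and 5.79%). A limit of 1.5-fold gave 1, 1 and 1 nuclear members with neratinib, each time UQCRHL as higher, and 0, 0 and 0 mitochondrial ones. Of all genes 3.20%, 3.52% and 3.14% were higher and 11.9%, 13.2% and 11.5% lower. The cause of these shifts was not tested, beyond what each setting removes. The other 74 values for sums and counts moved by less than their counting interval or by under 1.5 times. Members of some 100 CPM and below rest on few UMIs per cell, and spread between cultures cannot be had from 1 library per group.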

Other observations

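Ribosomal protein genes of the cell's 2 translation systems were at different levels with neratinib. The 80 listed genes of the mitochondrial ribosome, which translates the 13 mitochondrial members, summed to 8852, 8628, 7126 and 6979 CPM, ratios of -0.31 [-0.32, -0.31] for neratinib against DMSO and -0.31 [-0.31, -0.30] for both drugs against fulvestrant. Of 74 with a mean of at least 10 CPM, 31 were lower and 1 higher, and 33 and 1 on top of fulvestrant, where 32.5% and 8.14%, and 31.3% and 8.16%, of all genes were. With median-of-ratios scaling the sums were -0.13 and -0.14, with 15 and 12 lower and 3 and 3 higher, beside 16.8% and 17.1% of all genes lower and 16.3% and 16.8% higher. MRPL12, a large-subunit protein, had 170, 153, 86.9 and 82.7 CPM (-0.97 and -0.89), MRPL36 197, 179, 104 and 94.8 CPM (-0.92 and -0.91), and MRPS10 70.9, 65.3, 40.4 and 39.6 CPM (-0.81 and -0.72). The 86 cytosolic ribosomal protein genes summed to 199942, 197126, 212313 and 210705 CPM, ratios of 0.09 and 0.10, with 4 and 3 lower and 0 and 0 higher of 82. With median-of-ratios scaling the sums were 0.27 and 0.27, with 3 and 2 lower and 15 and 11 higher.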
